A study of Danio rerio with 6 samples.

Results

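The genes described here mark leukocytes, the white blood cells that enter tumours. A list of 10 leukocyte genes was looked up by symbol in the platform annotation, and 9 of the 10 were measured, by 14 of 15502 tested probe sets. They stand among 8793 named genes in all. No probe set carries the name of the macrophage gene mpeg1.1, so it has no value here. The 9 measured genes are ptprc, coro1a and lcp1, found in leukocytes in general, the myeloid regulator gene spi1b, the macrophage and antigen presentation genes ctss2.1, cd74a and cd74b, and the neutrophil genes mpx and lyz.

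Expression was measured in tumour tissue of zebrafish on 6 Affymetrix arrays, 1 array per tumour. The 3 small round blue cell tumours (SRBCT) arose in Tg(HSP:EWS-FLI1); p53M214K/M214K fish, and the 3 malignant peripheral nerve sheath tumours (MPNST) arose in p53M214K/M214K fish without the transgene. Both groups thus share the homozygous p53 mutation. In the transgene a heat shock promoter drives the human EWS-FLI1 fusion, and it was brought in on a transposon at the one-cell stage, so that insertions were somatic. The titles call the replicates biological, while ages, strains, tumour sites and the makeup of each tissue piece are not given in the sources used here. The array reads zebrafish transcripts and does not check the human fusion, and sox10, a neural crest and Schwann lineage gene, was high in both groups (10.66 ± 0.34, SD, n = 3, in SRBCT and 10.64 ± 0.17 in MPNST).

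Leukocytes share a set of proteins whatever their lineage. The membrane phosphatase CD45, product of ptprc, sets the threshold of antigen receptor signalling, and coronin 1A and L-plastin, products of coro1a and lcp1, organise the actin of moving cells. PU.1, product of spi1b, is the transcription factor that drives myeloid fate. Macrophages and other antigen-presenting cells load peptides on MHC class II molecules with the help of the invariant chain CD74, which in mammals is cut by cathepsin S. Neutrophils carry myeloperoxidase (mpx) and lysozyme (lyz), which are standard neutrophil markers in zebrafish.

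None of the 9 measured genes passed the test between the groups, though most had lower values in SRBCT. The 3 pan-leukocyte and 3 antigen presentation genes had SRBCT values that all lay below the lowest MPNST value, while the groups overlapped for spi1b, mpx and lyz. All values are on a log2 scale, differences are SRBCT minus MPNST, and each SD is over the n = 3 arrays of a group. Of the 9 genes 7 had a difference below 0, against 44.1% of all named genes, and the median of the 9 differences was -1.01, against 0.07 over all named genes. In 6 of the 9 all SRBCT values lay below all MPNST values, against 10% of named genes. That count was 5 with median centring, quantile normalization anew, cyclic loess and probe set means. No gene passed limma's moderated test at a Benjamini-Hochberg adjusted p under 0.05 (0 of 9, against 0.876% of named genes), and 5 of the 9 had an unadjusted p under 0.05, against 15.7%. The genes were chosen with earlier results of these data known, so these shares describe the list only. In whole tumour tissue, fewer leukocytes and less of a transcript per leukocyte cannot be told apart. Nor can these be told apart from expression by other cells or from a different share of other tissue in the pieces.

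**Figure D1:**
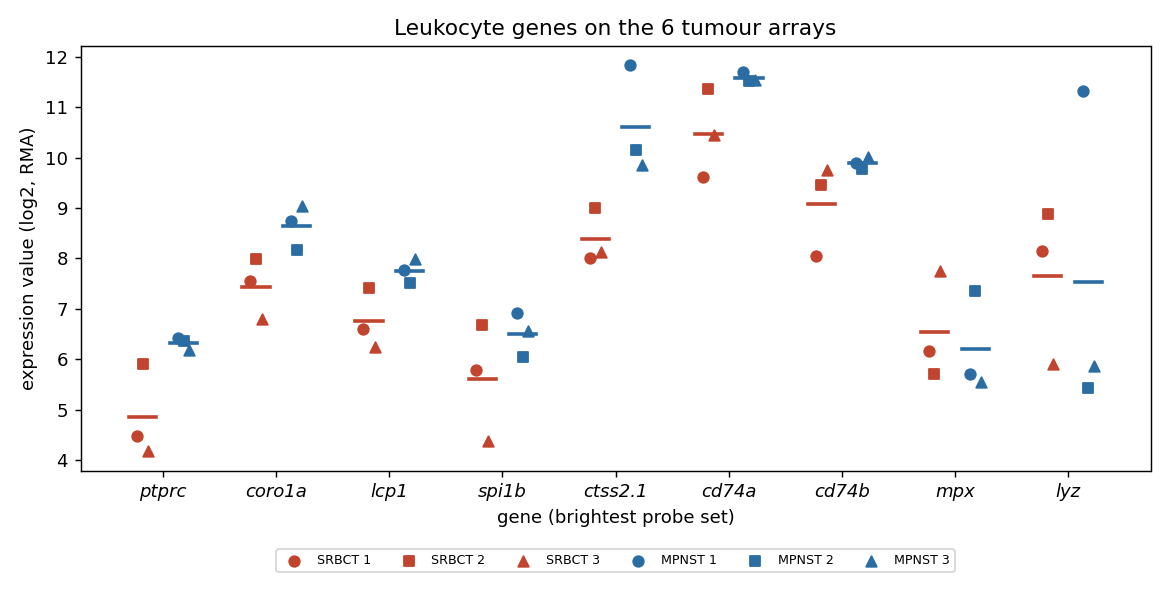
Expression values (log2, RMA) of the 9 measured leukocyte genes, each read by its brightest probe set, on the 6 arrays, with symbols for the arrays and bars for the group means. The SRBCT values lie below the MPNST values for ptprc, coro1a, lcp1, ctss2.1, cd74a and cd74b, and the groups overlap for spi1b, mpx and lyz.

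The leukocyte common antigen gene ptprc was at 4.48, 5.91 and 4.17 on SRBCT 1, 2 and 3, against 6.43, 6.36 and 6.19 on MPNST 1, 2 and 3. The MPNST arrays were alike, and SRBCT 2 came within 0.28 of the lowest of them, while SRBCT 1 and 3 lay much lower. The difference was -1.47 (SE 0.46, 95% interval -2.60 to -0.35), or 2.78-fold lower in SRBCT, with an adjusted p of 0.252 in limma. Of the 6 fits with an array left out it passed the threshold in 1, the one without SRBCT 2 (-2.0, adjusted p 0.0361), in which 0.682% of named genes passed.

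For coro1a the values were 7.55, 7.98 and 6.79 on SRBCT 1, 2 and 3, and 8.74, 8.17 and 9.03 on MPNST 1, 2 and 3. SRBCT 3 was the lowest array and SRBCT 2 came within 0.19 of MPNST 2, the lowest MPNST array. The difference was -1.21 (SE 0.38, 95% interval -2.13 to -0.28, limma adjusted p 0.254). A dimmer probe set of coro1a, at 3.20 to 3.85 on all arrays, did not show it, with a difference of 0.003 (95% interval -0.56 to 0.57, limma adjusted p 0.996). RMA draws dim values together, and the mean of both coro1a probe sets gave -0.60, so its change is uncertain.

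The L-plastin gene lcp1 was at 6.59, 7.41 and 6.25 on the SRBCT arrays in the same order, and at 7.76, 7.52 and 7.99 on the MPNST arrays. Here too SRBCT 3 was lowest and SRBCT 2 highest within its group, 0.11 below the lowest MPNST array. The difference was -1.01 (SE 0.34, 95% interval -1.83 to -0.19), a 2.01-fold lower value in SRBCT, with a limma adjusted p of 0.275.

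The PU.1 gene spi1b had overlapping groups. Its SRBCT values were 5.79, 6.67 and 4.37 for arrays 1, 2 and 3, against 6.92, 6.04 and 6.55 on MPNST 1, 2 and 3, so SRBCT 2 was above 2 of the 3 MPNST arrays and SRBCT 3 stood far below the rest. The difference of -0.89 (SE 0.60, 95% interval -2.34 to 0.56, limma adjusted p 0.505) rests largely on SRBCT 3, without which it was -0.27. The dimmer probe set of spi1b gave -0.55 (limma adjusted p 0.539), with SRBCT 3 lowest at 3.47 and SRBCT 2 highest at 4.97.

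**Figure D2:**
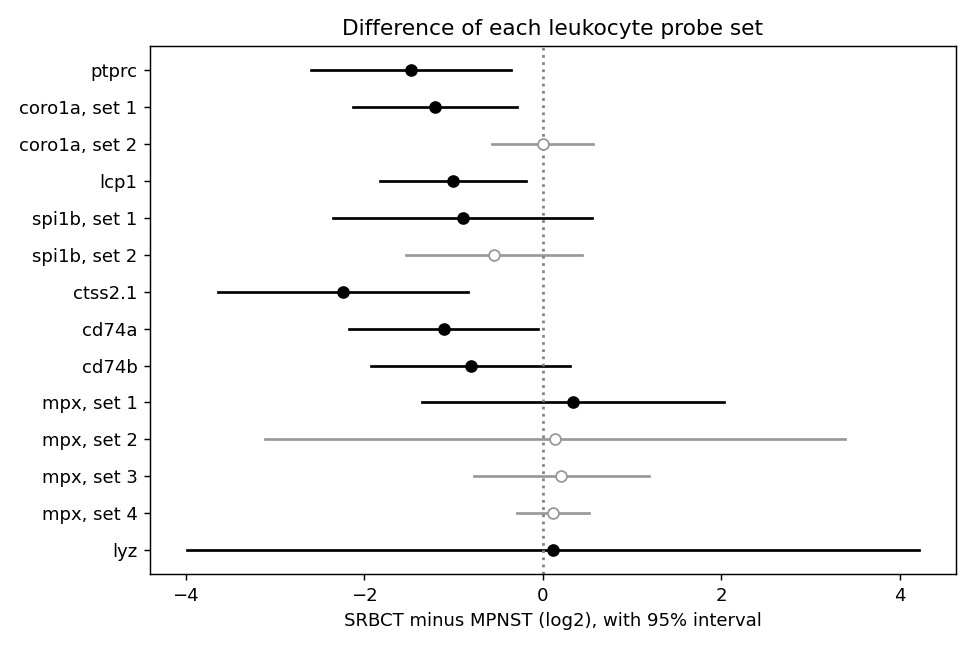
Difference SRBCT minus MPNST (log2) of each of the 14 leukocyte probe sets with its 95% interval from limma. Filled points are the brightest probe set of a gene and open points the dimmer ones, and set numbers run from bright to dim. The intervals of ptprc, ctss2.1, lcp1, cd74a and the brighter coro1a set lie below 0, those of the mpx and lyz sets span 0.

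Among the antigen presentation genes ctss2.1, a cathepsin S gene, had the lowest difference of the 9. It was at 8.01, 9.0 and 8.12 on SRBCT 1, 2 and 3, against 11.83, 10.15 and 9.85 on MPNST 1, 2 and 3. The groups lay 0.85 apart, the widest gap among the 9 genes, and MPNST 1 stood above the other MPNST arrays. The difference was -2.23 (SE 0.58, 95% interval -3.64 to -0.83), or 4.7-fold lower in SRBCT, with a limma adjusted p of 0.185. Without MPNST 1 it was -1.62, and in that fit none of the 9 genes passed, against 0.728% of named genes.

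Both invariant chain genes were at high values with little spread in MPNST. For cd74a the MPNST arrays were at 11.69, 11.51 and 11.54, and SRBCT 1, 2 and 3 at 9.62, 11.35 and 10.44. SRBCT 1 was the lowest array, and SRBCT 2 was only 0.16 below the nearest MPNST array. The difference was -1.11 (SE 0.43, 95% interval -2.16 to -0.06, limma adjusted p 0.313), and -0.68 without SRBCT 1.

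For cd74b the MPNST arrays were at 9.89, 9.77 and 10.02, and SRBCT 1, 2 and 3 at 8.04, 9.46 and 9.76. The groups were separated by 0.01, so that SRBCT 3 did not stand apart from MPNST and the difference of -0.81 (SE 0.46, 95% interval -1.92 to 0.31, limma adjusted p 0.447) came mostly from SRBCT 1. Without that array it was -0.28.

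The 3 SRBCT tumours thus differed from each other in how far these genes lay below MPNST. Over the 7 genes other than mpx and lyz, the median distance to the MPNST mean was -1.85 on SRBCT 1, -0.42 on SRBCT 2 and -1.86 on SRBCT 3. SRBCT 1 and 3 differed in which genes were lowest. The array at the bottom was SRBCT 3 for ptprc, coro1a, lcp1 and spi1b, and SRBCT 1 for ctss2.1, cd74a and cd74b. On SRBCT 3, cd74b was 0.13 below the MPNST mean (-0.13) while ptprc was at -2.16 from it.

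A technical measure was high on SRBCT 1 and 3 as well. The median of 18 bacterial and phage control probe sets was 10.1 on SRBCT 1 and 9.54 on SRBCT 3, against 7.92 on SRBCT 2 and 8.12 to 8.36 on the MPNST arrays. In a fit added once the data were seen, with that level as a covariate, the median difference of the 9 genes was -0.38 in place of -1.01, with 8 of 9 below 0 and none past the threshold. The difference was then -0.75 for ptprc (limma adjusted p 0.422) and -1.74 for ctss2.1 (limma adjusted p 0.392). The control level hardly varied in MPNST, so its slope in this fit rests almost wholly on the SRBCT arrays. An effect of the control level thus cannot be told apart from SRBCT 2 having the smallest median distance to MPNST. For GAPDH, the 3' control value minus the 5' one was 0.41 to 0.84 on the SRBCT arrays and 1.04 to 1.1 on the MPNST arrays, and its part in the result was not tested.

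**Figure D3:**
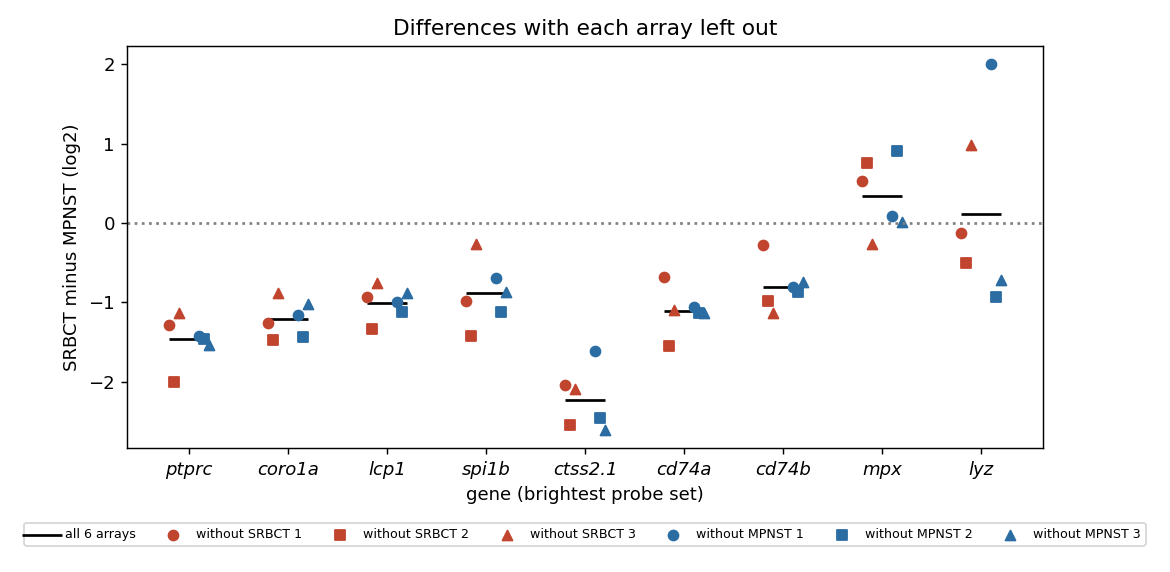
Difference SRBCT minus MPNST (log2) of each gene with all 6 arrays (black bars) and with each array left out in turn (coloured symbols). The 7 genes from ptprc to cd74b stay below 0 in all 6 fits, and mpx and lyz lie on either side of 0.

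The neutrophil genes did not separate the groups, and the brighter mpx probe sets did not follow lyz. lyz was at 8.14, 8.88 and 5.91 on SRBCT 1, 2 and 3, against 11.31, 5.42 and 5.86 on MPNST 1, 2 and 3. MPNST 1 was far above every other array, SRBCT 1 and 2 came next, and the remaining 3 arrays were low. The difference was 0.11 (SE 1.69, 95% interval -3.99 to 4.21, limma adjusted p 0.98), an interval so wide that it also holds the differences of the other 8 genes. It changed sign with the array left out, from -0.94 without MPNST 2 to 2.0 without MPNST 1. With both MPNST 1 and SRBCT 3 left out, a choice made once the data were seen, it was 2.87 and passed (limma adjusted p 0.026), as did 5.14% of named genes.

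The myeloperoxidase gene mpx was read by 4 probe sets that disagreed. The brightest was at 6.16, 5.71 and 7.74 on SRBCT 1, 2 and 3, against 5.71, 7.35 and 5.54 on MPNST 1, 2 and 3, for a difference of 0.34 (SE 0.70, 95% interval -1.35 to 2.03, limma adjusted p 0.829). SRBCT 3 and MPNST 2 were the high arrays, and both had low lyz. The next probe set had the same high arrays, at 8.66 and 8.51, with 4.31 to 6.04 on the other 4.

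The names of these 2 probe sets mark probes shared by alternative transcripts of a gene. The other mpx sets were dim. One was at 3.72 on SRBCT 1 and 3.76 on MPNST 1 and at 2.58 to 3.05 on the other arrays, and the dimmest stayed at 2.48 to 2.71. Which of the 4 reads the transcript of neutrophils cannot be told from these values, and the level of mpx is therefore uncertain.

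**Figure D4:**
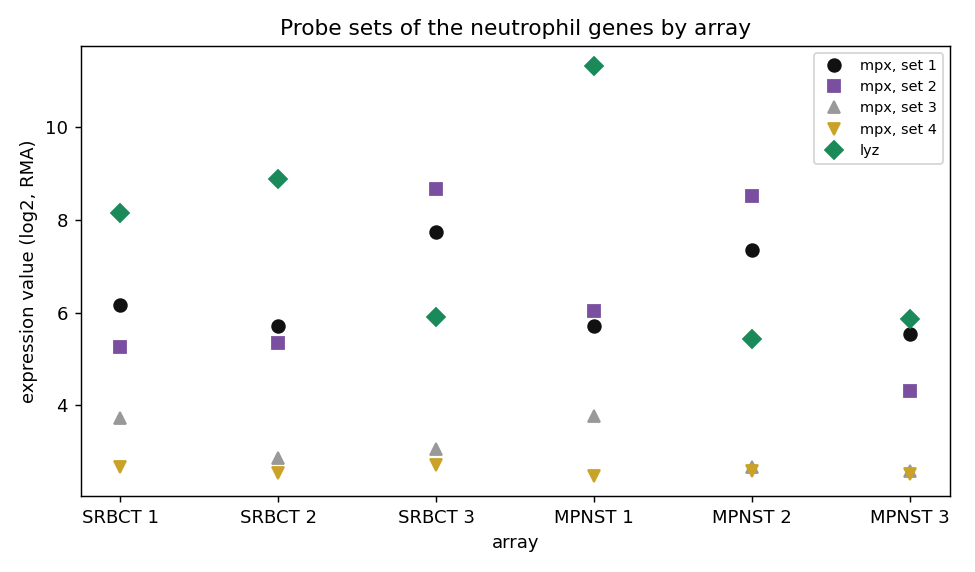
Expression values (log2, RMA) of the 4 mpx probe sets, numbered from bright to dim, and of lyz on each of the 6 arrays. The 2 brighter mpx sets are highest on SRBCT 3 and MPNST 2, and lyz is highest on MPNST 1 and next on SRBCT 2 and SRBCT 1.

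Markers of other tissues also differed between arrays, some on single arrays and some between the groups. The median of 23 liver genes, relative to each gene's mean over the 6 arrays, was 4.13 on MPNST 1. That array was also the highest for ptprc, spi1b, ctss2.1, cd74a and lyz. Its lead was small for ptprc (6.43, against 6.36 on MPNST 2) and cd74a (11.69, against 11.54 on MPNST 3). MPNST 3 was the highest for coro1a, lcp1 and cd74b, and SRBCT 3 for mpx. On the arrays other than MPNST 1 the liver median was -1.16 to -0.53. On SRBCT 3 the same median over 25 intestine and pancreas genes was 2.74, against -1.08 to 0.17 elsewhere. Gonad and germ cell genes (27) stood at 2.35 on MPNST 1, 0.68 and 0.15 on MPNST 2 and 3, and -1.14 to -0.84 on the SRBCT arrays. Of the 27, 7 fell in limma and none rose. In 16 all SRBCT values lay below all MPNST values, and in 2 above, so these 16 were not low on 1 array alone. Other members were near 0, such as piwil1 (-0.22), piwil2 (-0.13) and sycp3 (-0.08). The calls varied with the array left out, from 0 without SRBCT 1 or MPNST 2 to 9 without SRBCT 3, where 7.16% of named genes passed. Over all named genes, 0.876% passed in limma and 15.7% had an unadjusted p under 0.05. Of the same genes, 44.1% were below 0 and 10% had all SRBCT values below all MPNST values. The counts of this and the next lists stand beside these shares. Of 18 fibroblast and matrix genes 14 were below 0, with a median of -0.35, and 1 fell, the fibronectin gene fn1b (-2.52, limma adjusted p 0.0303). Of 19 erythroid and thrombocyte genes 12 were below 0, with a median of -0.36, none past the threshold in limma and 4 with an unadjusted p under 0.05. The measured globin genes did not go one way. hbaa1 differed by -1.45 (limma adjusted p 0.277), with separated groups, and hbba2 by 1.36 (limma adjusted p 0.416), with overlapping groups. The differences of hbae3, hbbe2 and hbbe3 were 0.25, 0.007 and 0.15. The fibroblast and erythroid medians are further below 0 than those of the leukocyte signalling and macrophage lists given next. Endothelial genes (9) had a median of -0.07. The part of these tissues in the leukocyte values was not tested. The 7 genes other than mpx and lyz were below 0 without MPNST 1 and without SRBCT 3, with 7 and 8 of the 9 below 0 in those fits.

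Other leukocyte genes were read from 6 further lists that leave out the 10 genes above. Their counts stand beside those over all named genes, of which 0.876% passed in limma, 15.7% had an unadjusted p under 0.05, 44.1% were below 0 and 10% had all SRBCT values below all MPNST values, with a median difference of 0.07. In the list of leukocyte signalling and actin genes 12 of 19 measured members (63.2%) were below 0, with a median of -0.17, and in 6 the SRBCT values lay below all MPNST values. None passed in limma, and 6 had an unadjusted p under 0.05. The smallest p-values were those of capgb, an actin capping protein gene (-3.71, limma adjusted p 0.0719), wasb of the actin regulator WASP (-0.82, adjusted p 0.272) and the blood progenitor gene lmo2 (-0.55, adjusted p 0.297). capgb was at 4.54, 6.69 and 6.76 on the SRBCT arrays and at 9.44 to 10.06 on the MPNST arrays, with no SRBCT array near MPNST.

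In the macrophage list 1 of 20 members fell, none rose and the median was -0.19. The 10 members below 0 (50%) are a share near that of all named genes. In 4 members the SRBCT values lay below all MPNST values and in 0 above, and 4 had an unadjusted limma p under 0.05. The list median, relative to gene means, was -0.29 to -0.02 on the SRBCT arrays and 0.07 to 0.2 on the MPNST arrays. Lower SRBCT values like those of the antigen presentation genes above were thus seen in part of the list only. Some of its members were higher in SRBCT without passing, such as aif1l (1.78, limma adjusted p 0.447) and the apolipoprotein E gene apoeb (1.30, adjusted p 0.392), both picked after their values were seen. The gene that fell was acp5a, encoding the tartrate-resistant acid phosphatase of osteoclasts and macrophages. It was at 6.14, 6.0 and 4.76 on SRBCT 1, 2 and 3, against 11.09, 9.50 and 9.39 on MPNST 1, 2 and 3. The groups lay far apart, at a difference of -4.36 (SE 0.59, limma adjusted p 0.0368). Germ cell genes that fell had low SRBCT and high MPNST values too, a likeness to acp5a that was fixed by choosing called genes. Of the 7, zar1l and btg4 were picked after their values were seen. The maternal factor gene zar1l was at 5.20, 4.51 and 5.08 on the SRBCT arrays and 10.97, 9.46 and 9.2 on the MPNST arrays. For btg4, which acts in maternal mRNA decay, the values were 5.13, 4.01 and 4.6 in SRBCT and 10.34, 8.88 and 8.97 in MPNST. Within SRBCT the order differed, with acp5a lowest on SRBCT 3 and zar1l and btg4 lowest on SRBCT 2. The part of germ cells in the acp5a difference was not tested. Of the 6 fits with an array left out it passed in 1, the one without SRBCT 3 (adjusted p 0.0176), the others reaching an adjusted p of 0.149. It did not pass with the control level as a covariate (adjusted p 0.172) or with cyclic loess (0.0557).

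The 6 genes of MHC class II and antigen presentation were all below 0, with a median of -0.63, and none passed in limma (2 with an unadjusted p under 0.05). ctss1, another cathepsin S gene, differed by -1.43 (limma adjusted p 0.167), the MHC class II alpha chain gene mhc2daa by -2.03 (adjusted p 0.326) and ctss2.2 by -0.89 (adjusted p 0.498). The lowest value of mhc2daa was 2.81, on SRBCT 1, where cd74a, cd74b and ctss2.1 were lowest too. Its highest was 7.31 on MPNST 1, and the groups overlapped.

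In the list of neutrophil and phagocyte oxidase genes 4 of 15 (26.7%) were below 0, and the median of 0.13 was close to the 0.07 of all named genes. Their median level was 5.36, below the median of all probe sets on each array (5.46 to 5.57), which limits what the list can show. It also holds cpa5, which was highest on SRBCT 3 (10.77), like the intestine and pancreas list. The groups did not overlap in 2 members lower and 2 higher in SRBCT. None passed in limma, and 4 had an unadjusted p under 0.05. padi2, a peptidylarginine deiminase gene, was higher on all SRBCT arrays (2.22, limma adjusted p 0.155), as was mmp9, encoding a gelatinase of neutrophil granules that other cells also make (2.18, adjusted p 0.275). srgn, encoding the granule proteoglycan serglycin, was lower (-1.80, adjusted p 0.217). On SRBCT 1, 2 and 3 it was at 7.19, 7.91 and 5.92, against 8.52 to 8.97 on MPNST, the same order within SRBCT as for the pan-leukocyte genes.

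The lymphocyte list had a median of -0.03 over 9 measured genes of 52 listed. Of the 9, 5 (55.6%) were below 0, with none past the threshold in limma and none with an unadjusted p under 0.05. Their median level was 4.62, below the median of all probe sets on each array (5.46 to 5.57), so the list can show little. The members with the smallest p were the NK-lysin gene nkl.4 (-1.83, limma adjusted p 0.34), the T cell factor gene gata3 (-1.64, adjusted p 0.38) and the B cell factor gene pax5 (0.29, adjusted p 0.539). Cytokines and chemokines had a median of 0.06 over 15 genes, 5 (33.3%) below 0. Their median level of 5.29 was also below the array medians. None of them passed in limma, and 2 had an unadjusted p under 0.05. The interferon gene ifnphi1 differed by -1.23 (limma adjusted p 0.217), the chemokine gene ccl44 by -3.52 (adjusted p 0.252) and the interleukin 12 subunit gene il12bb by 0.63 (adjusted p 0.38).

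Without SRBCT 3, where 7.16% of named genes passed, calls in these 6 lists were capgb, acp5a, lgals3b and ifnphi1 as lower and coro1b and aif1l as higher in SRBCT. Without SRBCT 2, where 0.682% of named genes passed, they were marco, a macrophage scavenger receptor gene, as lower and ctsl.1 and padi2 as higher.

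**Figure D5:**
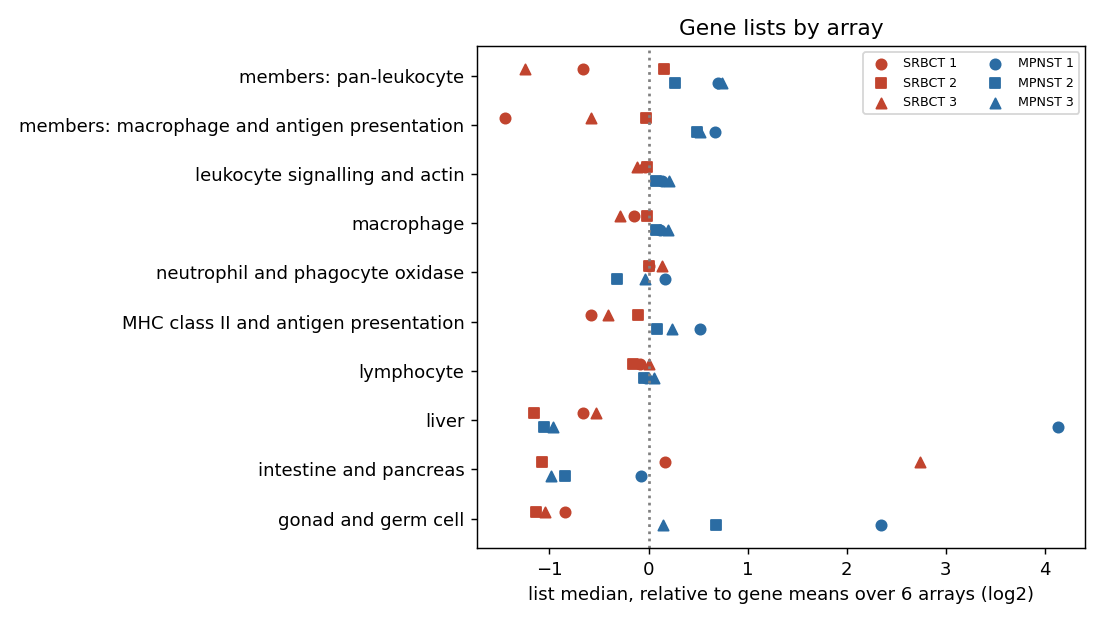
Median of each gene list on each array, relative to each gene's mean over the 6 arrays (log2), for pan-leukocyte and antigen presentation members, 5 further leukocyte lists and 3 lists of other tissues. The SRBCT arrays lie below the MPNST arrays in both member groups and in the leukocyte signalling, macrophage and MHC class II lists. The same holds for the gonad and germ cell list. In the other lists drawn the groups overlap. The fibroblast and matrix list, not drawn, also had SRBCT arrays (-0.78 to 0) below the MPNST arrays (0.02 to 0.37). Liver genes stand out on MPNST 1 at 4.13 and intestine and pancreas genes on SRBCT 3 at 2.74.

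Genes with the pattern most like ptprc were sought among 2549 brighter named genes whose SD over the 6 arrays was at least 0.5. The highest Pearson r over the 6 arrays was that of rsrp1 (0.988), followed by rap1ab (0.983), stx4 (0.975), grna (0.975) and runx2a (0.966). Of these grna, a progranulin gene, is in the macrophage list. It was at 5.94, 7.04 and 5.71 on SRBCT 1, 2 and 3, against 6.91 to 7.32 on the MPNST arrays, so SRBCT 2 lay among the MPNST values. For the brightest mpx probe set the nearest genes were exoc7 (0.963), me3 (0.949), cyp20a1 (0.947), jag2b (0.934) and tlk1b (0.922), none of them in a leukocyte list. All genes share the same 6 arrays, so these values describe likeness only.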

How the data were processed

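Per the submitters' processing notes, the authors made the deposited log2 values by RMA (affy, R 2.2.0), which corrects background, equalises the distributions of the arrays by quantiles and summarises the probes of each set. Per the labels' protocols, cRNA was made from total RNA by oligo(dT) priming. Base 2 was taken from RMA and the range (1.86 to 13.88). Of 15617 probe sets, 115 controls were left out of the tests. Gene symbols are those of a platform annotation dated 2016, with 1 symbol updated through a GRCz12tu gene table, and probe sets with several symbols (135) or none (4572) were not named. A gene was read from its brightest probe set. The test was that of limma 3.58.1 (R 4.3.3) over all 6 arrays without covariates, with Benjamini-Hochberg adjustment over 15502 probe sets. Each p-value sets the difference between the groups against the spread between tumours of a group, moderated over all probe sets. On simulated data of the same size, 9.09% of changes of 1 log2 unit, 61.2% of 2 and 89.6% of 4 were recovered, with 2 false calls. The members and lists were chosen with earlier results of these data known. Named genes are all members, the called genes of each further list or else its 3 smallest p-values, and the nearest patterns. Genes called only without an array were named after their values were seen. The number of arrays limits the precision.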

Additional observations from a re-analysis of the deposited data

How the results depend on the processing

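With all 6 arrays 0 of 9 genes passed, and leaving out an array gave 0 to 1, the 1 being ptprc without SRBCT 2. Without SRBCT 3 and MPNST 1 the count was 1, lyz. Leaving out an array gave 7 to 8 genes below 0 and a median difference from -1.42 to -0.88. With the control level as a covariate, in a fit that rests on the spread within SRBCT, the median was -0.38. The difference of lyz ran from -0.94 to 2.0 and that of mpx from -0.27 to 0.91 over the fits that left out an array. mpx was also below 0 with array weights (-0.08), with the control level as a covariate (-0.19) and without SRBCT 3 and MPNST 1 (-0.51). The cause of these changes was not tested. The 7 other genes stayed below 0 under every alternative run that can move a difference. These were cyclic loess, quantile normalization anew, median centring, array weights, probe set means and those above. The other runs leave these differences unchanged by design, so their signs were fixed in advance. They were no dim probe sets, a trended and robust variance, the replicate block and an adjusted p under 0.10. With the replicate block ptprc differed by -1.47 (adjusted p 0.305), and the block changed no call of a member. Same-numbered arrays had correlations of deviations of 0.063, 0.07 and -0.046, so no pairing by number was seen in them. Taken from means of 3 arrays per group, these values cannot exclude a pairing. Dim values limit what the second coro1a set, the dim mpx sets and the lymphocyte, neutrophil and cytokine lists can show.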

Other observations

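Some members of the macrophage and neutrophil lists had the same 3 high arrays as lyz. These were chosen after their values were seen. mmp13a, a collagenase gene, was at 9.87 on SRBCT 1, 8.05 on SRBCT 2 and 8.43 on MPNST 1, against 5.43 to 6.13 on SRBCT 3 and MPNST 2 and 3. ncf1, encoding a subunit of the phagocyte oxidase, was at 5.29, 5.42 and 5.02 on the first set of arrays and at 3.91 to 4.24 on the others. aif1l, related to the macrophage marker gene aif1, was at 9.42, 9.87 and 7.85 against 6.06 to 6.35. In each of these genes the high arrays came from both tumour types, and none passed between the groups with all 6 arrays. Other members of the same lists did not have this pattern, such as mmp9, at 6.13 on MPNST 1 and 8.45 on SRBCT 3. Genes outside these lists had it too. The chemokine gene cxcl12a was at 9.38, 10.41 and 9.35 on SRBCT 1, SRBCT 2 and MPNST 1, against 5.31 to 7.71. The endothelial gene plvapb was at 6.29, 7.11 and 6.67 against 4.61 to 6.15.

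The scavenger receptor gene marco, a macrophage marker in zebrafish, had values of 6.59, 9.28 and 6.07 on SRBCT 1, 2 and 3, against 8.53 to 8.76 on the MPNST arrays. SRBCT 2 was thus the highest of the 6 arrays, as SRBCT 2 was the highest SRBCT array for ptprc, coro1a, lcp1 and spi1b. c1qc, a complement C1q gene of macrophages, was at 7.62, 8.36 and 4.82 on the SRBCT arrays and at 8.01 to 8.33 on the MPNST arrays, with SRBCT 3 alone low. marco and c1qc were picked after their values were seen, and other macrophage genes had other orders. On SRBCT 1, 2 and 3, ccl34b.1 was at 7.26, 6.33 and 5.09, cd68 at 7.17, 9.23 and 8.99, and lgals3b at 4.58, 5.37 and 8.03.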
